A study of Mus musculus with 18 samples.

Results

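The Eph receptors, ephrins, Slits, Robos, netrins and netrin receptors of the embryonic mouse spinal cord were examined in cells carrying an Aldh1l1-GFP transgene. Members were all genes of the deposited module table whose symbols belong to these families. Of its 23890 genes, 40 met this rule: 14 Eph receptors, 8 ephrins, 3 Slits, 3 Robos, 6 netrins and netrin-Gs, and the 6 netrin receptors Dcc, Neo1 and Unc5a to Unc5d. Each was represented by 1 probe set.

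GFP-expressing cells were compared with sorted live cells of the whole cord, all from transgenic embryos on a Swiss-Webster background, after papain dissociation and flow sorting. Aldh1l1 is expressed in the radial glia and astrocyte lineage, so the transgene marks those cells. GFP cells were profiled at E13.5 (3 arrays), E14.5 (2 arrays) and E17.5/E18.5 (2 arrays at E17.5 and 1 at E18.5). Live cells were profiled at the same ages with 3 arrays each, again with 1 of the late 3 at E18.5. The E18.5 array is the last of the late values given for each sort. A further array, titled as mislabeled, was left out, so 17 of 18 arrays entered the fit. The titles describe the comparison samples as all live cells, whereas a protocol label speaks of GFP-negative cells; if they were all live cells, they contain the GFP cells too and a difference understates the contrast with the other cells. In whole-population RNA, fewer cells of a type and less RNA per cell cannot be told apart.

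Guidance receptors on growing axons read cues laid down by neighbouring cells, among them the radial glia and floor plate of the cord. Secreted Slits repel axons through Robo receptors. Netrin 1 attracts them through Dcc and repels them through Unc5 receptors. Ephrins are themselves membrane-bound, the A class by a lipid anchor and the B class by a transmembrane segment, and signal to Eph receptor tyrosine kinases on contact. Many Eph receptors and ephrins are also expressed by neural progenitors.

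Between E13.5 and E17.5/E18.5 the difference of GFP cells from all live cells changed for 7 genes, and of these Ephb1 and Efna5 have a single listed start at the outer end of the annotated gene. Their changes ran in opposite directions, as described further on. The 250 bases before the start are shown for both, 5′ to 3′, from RefSeq on build GRCm38.p6, minus strand. Ephb1 lies at chr9:102354694-102354943 and Efna5 at chr17:62881318-62881567. Capitals mark matches on either strand to 3 motifs: AACAAT for SOX factors, TTGGCA for the half-site of NFI factors, and TGACNNNGC for the bZIP group that includes Nfe2l1.
Ephb1: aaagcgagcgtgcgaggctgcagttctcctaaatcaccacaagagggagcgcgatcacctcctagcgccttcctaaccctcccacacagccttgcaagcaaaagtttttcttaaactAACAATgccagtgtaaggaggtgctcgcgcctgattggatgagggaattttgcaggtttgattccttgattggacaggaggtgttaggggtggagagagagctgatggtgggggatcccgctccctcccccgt
Efna5: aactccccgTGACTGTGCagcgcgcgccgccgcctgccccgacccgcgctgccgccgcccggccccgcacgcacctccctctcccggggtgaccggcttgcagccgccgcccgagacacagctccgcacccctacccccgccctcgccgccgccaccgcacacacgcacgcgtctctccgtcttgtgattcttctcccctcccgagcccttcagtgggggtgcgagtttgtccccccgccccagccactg
The Ephb1 window held 1 SOX match, starting 133 bases before the start of the gene, and the Efna5 window held 1 bZIP match, starting 241 bases before it. Such matches are common. The SOX motif was in 9.42%, the NFI motif in 12.3% and the bZIP motif in 10.2% of 32851 mouse promoter windows of the same length. Among 40 windows of the 35 members found in that table, 1, 3 and 3 held them. The motif matches in the windows shown did not overlap.

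Values are log2 expression levels. A gene was called at an adjusted p under 0.05 in limma's moderated test over 23845 genes (Benjamini-Hochberg adjustment), and differences are log2 with standard errors (SE). The sort was checked on marker lists. Of 12 measured pan-neuronal genes, 12, 12 and 11 were lower in GFP cells than in all live cells at E13.5, E14.5 and E17.5/E18.5. Of 14 radial glia and astrocyte genes, 10, 11 and 11 were higher, led at E13.5 by Aldoc (2.28 ± 0.13) and Aldh1l1 itself (2.19 ± 0.12). Of 9 microglial genes, 7, 9 and 9 were lower. The summed linear level of the 6 erythroid genes was 950 to 1462 in GFP cells and 20734 to 33255 in all live cells. Arrays of a group correlated at 0.985 to 0.994.

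GFP cells differed from all live cells in 17 of the 40 guidance genes at E13.5, 9 higher and 8 lower, where 11.1% of all genes were called higher and 8.01% lower. At E14.5 they differed in 15, 7 higher and 8 lower, against 10.3% and 8.23% of all genes. At E17.5/E18.5 they differed in 10, 7 higher and 3 lower, against 4.6% and 4.68%. The median difference of the 40 was -0.01, -0.04 and 0.05 at the 3 ages, beside -0.04, -0.03 and 0.04 for all genes. The E13.5 split was 6 higher and 8 lower after quantile normalization, and 12 higher and 8 lower with the arrays shifted to a common median or with array weights. The higher share of all called genes was 51.3%, 67.4% and 54.2% in those 3 fits, in place of 58.1%. Slit1, Neo1, Epha5 and Ephb3 were higher in GFP cells at all 3 ages, and Unc5c and Epha6 were lower at all 3. Late calls were fewer without the third live-cell array, the E18.5 one, which left 6. In that fit 6.87% of all genes were called, in place of 9.29%.

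**Figure D1:**
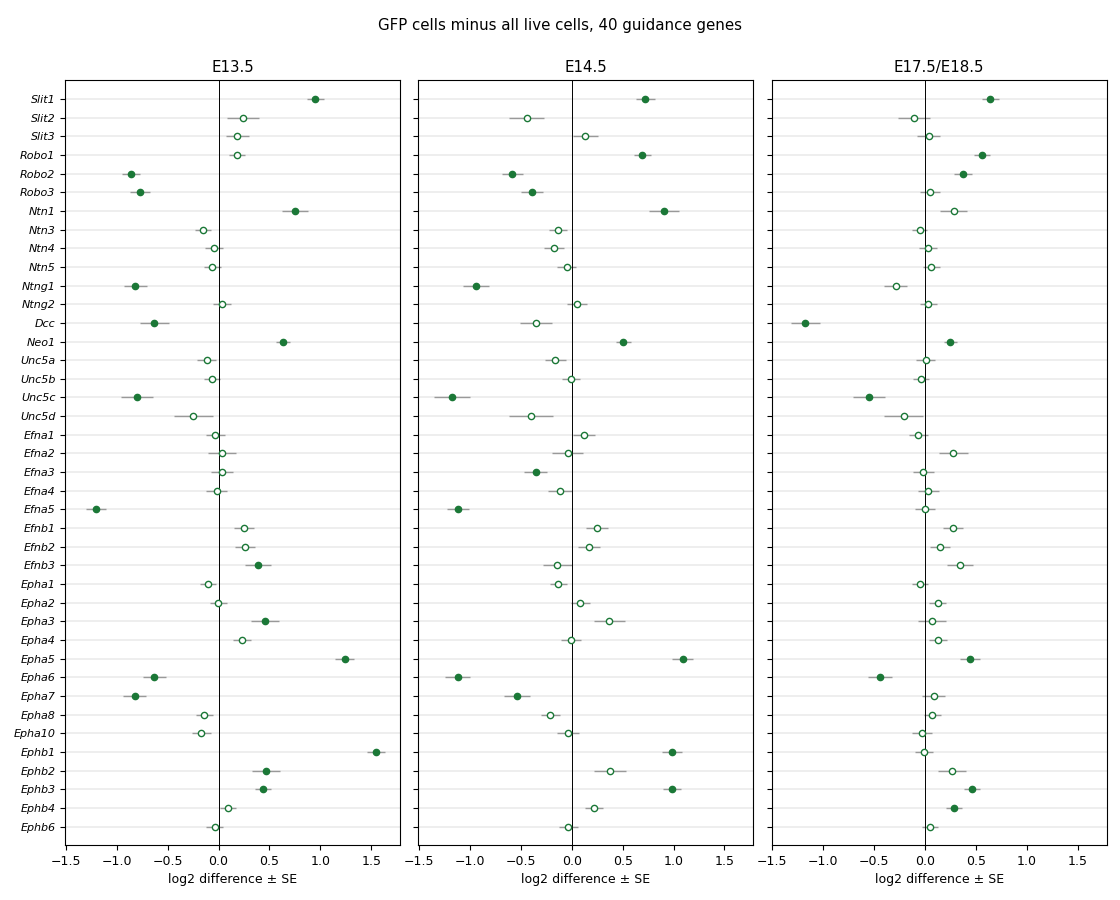
Log2 difference between GFP cells and all live cells (horizontal axis) for the 40 guidance genes (rows) at each age, with bars of 1 SE; filled points passed an adjusted p of 0.05. Slit1, Neo1, Epha5 and Ephb3 lie right of 0 in all 3 panels, Unc5c and Epha6 left of it, and Robo2 changes side.

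Among the Slits, Slit1 was the one enriched in GFP cells. It read 9.79, 9.98 and 9.86 at E13.5, 9.77 and 9.70 at E14.5 and 9.42, 9.48 and 9.55 at E17.5/E18.5 in GFP cells, against 8.94, 8.90 and 8.94, then 9.03, 9.13 and 8.89, then 8.97, 8.83 and 8.73 in all live cells. The lowest GFP array stood above the highest live-cell array. Slit1 was 1.93-fold higher at E13.5 (0.95 ± 0.08, adjusted p = 4.3e-07), 1.65-fold at E14.5 (0.72 ± 0.09) and 1.56-fold at E17.5/E18.5 (0.64 ± 0.08, adjusted p = 7.78e-05). Within GFP cells it fell with age (-0.39 ± 0.08, E17.5/E18.5 against E13.5).

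Slit2 had no called difference between the sorts and a steep change with age. The difference at E14.5 was -0.44 ± 0.17 (adjusted p = 0.0952, and 0.025 in a fit of those 2 groups alone). In GFP cells it read 9.69, 9.70 and 9.88 at E13.5, 8.86 and 8.66 at E14.5 and 8.62, 7.91 and 8.14 at E17.5/E18.5, against 9.66, 9.49 and 9.40, then 9.25, 9.29 and 9.07, then 8.56, 8.42 and 8.03 in all live cells. The late arrays all lay below the E13.5 arrays of the same sort. Slit2 fell by 1.53 ± 0.16 in GFP cells (adjusted p = 2.93e-06) and by 1.18 ± 0.16 in all live cells (adjusted p = 2.65e-05). Most of the fall in GFP cells was present at E14.5 (-0.997 ± 0.17, adjusted p = 0.00658), a call lost without the second GFP array of that age (-0.90, adjusted p = 0.12). Slit3 was called in no comparison.

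The 3 Slit receptors differed from one another. Robo1 read 11.30, 11.42 and 11.23 at E13.5, 11.54 and 11.62 at E14.5 and 11.25, 11.34 and 11.20 at E17.5/E18.5 in GFP cells, against 11.09, 11.05 and 11.26, then 10.87, 10.93 and 10.87, then 10.73, 10.69 and 10.68 in all live cells. The sorts overlapped at E13.5 and were apart later. Robo1 was 1.62-fold higher in GFP cells at E14.5 (0.69 ± 0.08, adjusted p = 1.27e-05) and 1.48-fold at E17.5/E18.5 (0.56 ± 0.08, adjusted p = 0.000106). All live cells lost Robo1 with age (-0.43 ± 0.08), while the late against E13.5 difference in GFP cells was -0.05 ± 0.08. The difference between those 2 changes missed the threshold (0.38 ± 0.11, adjusted p = 0.055), and without the second E13.5 GFP array it was 0.43 (adjusted p = 0.047).

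Robo2 changed sides. In GFP cells it read 10.02, 9.93 and 9.79 at E13.5, 10.42 and 10.51 at E14.5 and 10.56, 10.45 and 10.65 at E17.5/E18.5. In all live cells it read 10.62, 10.81 and 10.87, then 11.09, 10.99 and 11.07, then 10.17, 10.09 and 10.27. GFP arrays lay below live-cell arrays at both earlier ages and above them at the last. The differences were -0.86 ± 0.09 at E13.5 (adjusted p = 2.41e-06), -0.58 ± 0.10 at E14.5 (adjusted p = 0.000341) and 0.37 ± 0.09 at E17.5/E18.5 (adjusted p = 0.0111). The late call was lost after quantile normalization (0.27, adjusted p = 0.059) and in a fit of those 2 groups alone (adjusted p = 0.076). Over age Robo2 rose in GFP cells (0.64 ± 0.09, adjusted p = 7.18e-05) and fell in all live cells (-0.59 ± 0.09, adjusted p = 9.43e-05). It was the 1 member of the 40 called in opposite directions over age in the 2 sorts, and the interaction of sort and age was 1.23 ± 0.12 (adjusted p = 2.25e-05).

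Robo3, known for holding back Slit repulsion in commissural axons before they cross the midline, read 8.06, 8.15 and 7.94 at E13.5, 8.07 and 7.89 at E14.5 and 7.62, 7.55 and 7.43 at E17.5/E18.5 in GFP cells, against 8.98, 8.82 and 8.67, then 8.37, 8.44 and 8.29, then 7.35, 7.61 and 7.50 in all live cells. The sorts were apart at E13.5 and E14.5 and overlapped at E17.5/E18.5. Robo3 was lower in GFP cells at E13.5 (-0.77 ± 0.10, adjusted p = 1.78e-05) and at E14.5 (-0.39 ± 0.11, adjusted p = 0.0167). The E14.5 call was lost without the second GFP array (-0.30, adjusted p = 0.21) or the second live-cell array (-0.35, adjusted p = 0.053) of that age. Its fall with age was larger in all live cells (-1.34 ± 0.10) than in GFP cells (-0.52 ± 0.10), and the interaction was 0.82 ± 0.14 (adjusted p = 0.00187).

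**Figure D2:**
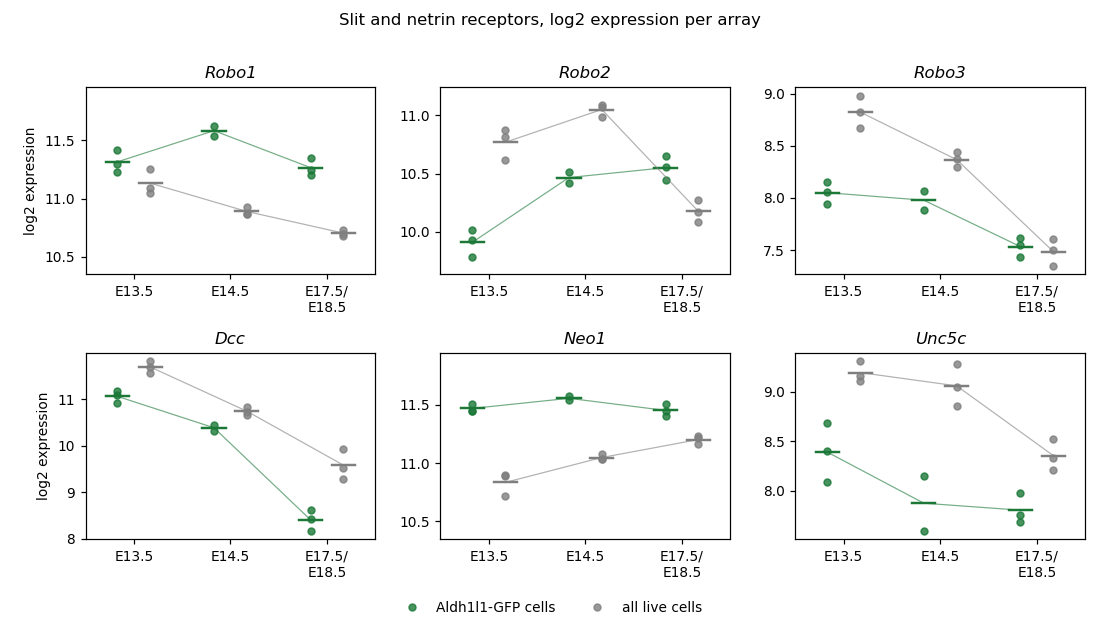
Log2 expression (vertical axis) of the Robos, Dcc, Neo1 and Unc5c on each array by age (horizontal axis), GFP cells in green and all live cells in grey; bars are group means and lines join them. Robo2 GFP arrays lie below live-cell arrays at E13.5 and E14.5 and above them at E17.5/E18.5, and Dcc is lowest in the late GFP arrays.

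Ntn1, the secreted netrin of floor plate and ventricular zone, was higher in GFP cells at both early ages. It read 9.42, 9.57 and 9.46 at E13.5, 9.54 and 9.80 at E14.5 and 9.50, 9.23 and 8.89 at E17.5/E18.5 in GFP cells, against 8.70, 8.63 and 8.86, then 8.61, 8.74 and 8.93, then 9.04, 8.95 and 8.77 in all live cells. The E18.5 array was the lowest of the late GFP arrays and fell within the live-cell range. Ntn1 was 1.68-fold higher at E13.5 (0.75 ± 0.13, adjusted p = 0.000518) and 1.87-fold at E14.5 (0.91 ± 0.15, adjusted p = 0.000235). The late difference was 0.28 ± 0.13 (adjusted p = 0.226), and 0.44 without the E18.5 GFP array (adjusted p = 0.031). Of 5 floor plate markers, GFP cells had 1 called higher at E13.5 and 2 at E14.5. Their summed linear level was 2142 to 2311 in GFP cells and 1414 to 1540 in all live cells at E13.5, led by Spon1, a secreted matrix protein of the floor plate (1.48 ± 0.09). Their part in the Ntn1 difference was not tested. Ntn3, Ntn4 and Ntn5 were called in no comparison.

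Ntng1 encodes netrin-G1, a membrane-anchored relative that binds Lrrc4c rather than Dcc. It read 7.16, 6.99 and 7.11 at E13.5, 7.43 and 7.38 at E14.5 and 7.70, 7.55 and 7.68 at E17.5/E18.5 in GFP cells, against 8.10, 7.91 and 7.71, then 8.56, 8.08 and 8.38, then 8.02, 7.89 and 7.88 in all live cells. It was lower in GFP cells at E13.5 (-0.82 ± 0.11, adjusted p = 5.65e-05) and E14.5 (-0.94 ± 0.13, adjusted p = 3.82e-05), and the late difference was -0.29 ± 0.11 (adjusted p = 0.143). Within GFP cells it rose with age (0.56 ± 0.11, adjusted p = 0.00253), and so did the partner Lrrc4c (1.11 ± 0.16, adjusted p = 0.000124). In all live cells the late Lrrc4c arrays (9.86, 9.79 and 10.29) also lay above those at E13.5 (9.21, 9.53 and 9.34). Ntng2 was called in no comparison.

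**Figure D3:**
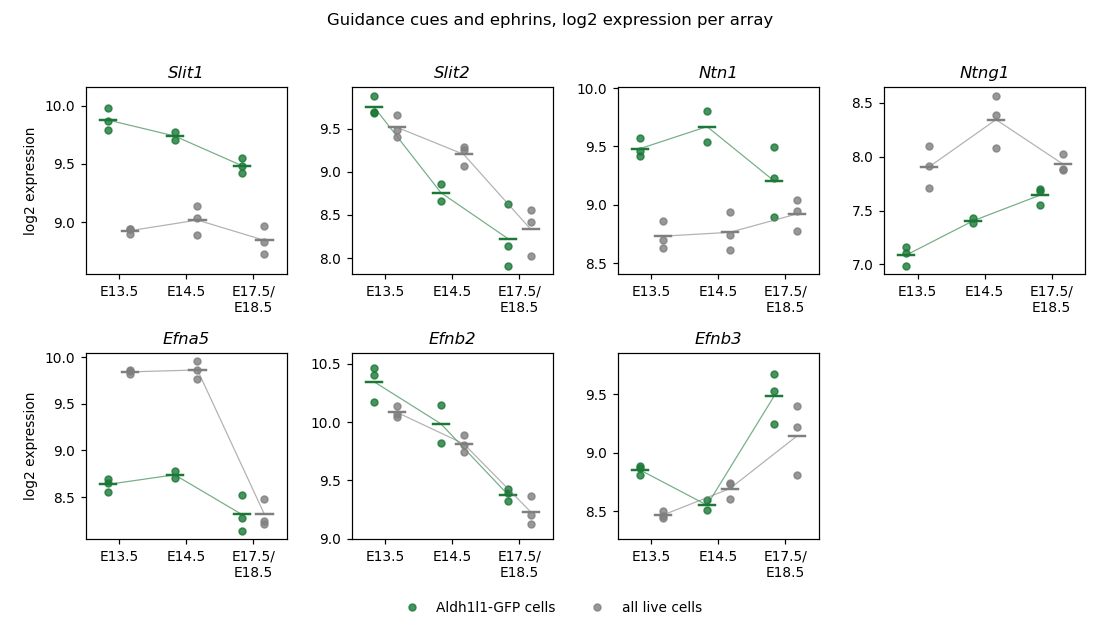
Log2 expression (vertical axis) of Slits, netrins and ephrins on each array by age (horizontal axis), GFP cells in green and all live cells in grey; bars are group means and lines join them. The Slit1 GFP arrays lie above the live-cell arrays at every age, and the Efna5 live-cell arrays drop to the GFP range at E17.5/E18.5.

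Of the netrin receptors, Dcc fell furthest with age. In GFP cells it read 11.09, 11.18 and 10.92 at E13.5, 10.45 and 10.32 at E14.5 and 8.42, 8.63 and 8.17 at E17.5/E18.5, against 11.82, 11.57 and 11.69, then 10.84, 10.73 and 10.65, then 9.29, 9.52 and 9.94 in all live cells. GFP arrays lay below live-cell arrays at each age. The late GFP level was 0.159 times that at E13.5 (-2.65 ± 0.14, adjusted p = 1.56e-09), and all live cells fell to 0.232 times (-2.11 ± 0.14, adjusted p = 1.27e-08). Dcc was lower in GFP cells at E13.5 (-0.63 ± 0.14, adjusted p = 0.00387) and at E17.5/E18.5 (-1.18 ± 0.14, adjusted p = 3.46e-05), and the E14.5 difference was -0.36 ± 0.16 (adjusted p = 0.144, and 0.042 in a fit of those 2 groups alone). The summed linear level of the pan-neuronal genes in GFP cells was 14392 to 15479 at E13.5, 10960 to 11046 at E14.5 and 6222 to 7158 at E17.5/E18.5, against 31672 to 34458, 31239 to 34040 and 14972 to 16824 in all live cells. In GFP cells this sum was lower at each later age, as Dcc was, whereas in all live cells it overlapped between E13.5 and E14.5 while the Dcc arrays of those ages were apart. The part of neuronal transcripts in the Dcc differences was not tested.

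Neo1, the Dcc relative that also binds RGM proteins, went the other way. It read 11.45, 11.51 and 11.45 at E13.5, 11.54 and 11.57 at E14.5 and 11.44, 11.51 and 11.40 at E17.5/E18.5 in GFP cells, against 10.89, 10.72 and 10.90, then 11.03, 11.08 and 11.03, then 11.23, 11.21 and 11.16 in all live cells. GFP cells stayed within 11.40 and 11.57 while the live-cell level rose with age (0.37 ± 0.07, adjusted p = 0.000732). The excess in GFP cells was 0.63 ± 0.07 at E13.5 (adjusted p = 3.74e-06), 0.51 ± 0.08 at E14.5 (adjusted p = 0.000107) and 0.25 ± 0.07 at E17.5/E18.5 (adjusted p = 0.0279). The late call was lost without the first or second GFP array or the second or the third live-cell array of that age (0.22 to 0.25, adjusted p of 0.055 to 0.11) and after quantile normalization (0.16, adjusted p = 0.15).

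Unc5c, the one Unc5 receptor called, read 8.40, 8.68 and 8.09 at E13.5, 7.60 and 8.15 at E14.5 and 7.98, 7.75 and 7.69 at E17.5/E18.5 in GFP cells, against 9.16, 9.11 and 9.31, then 9.28, 8.85 and 9.04, then 8.33, 8.21 and 8.53 in all live cells. GFP arrays were the lower ones at each age. The level in GFP cells was 0.574 times that in all live cells at E13.5 (-0.80 ± 0.16, adjusted p = 0.00146), 0.441 times at E14.5 (-1.18 ± 0.18, adjusted p = 0.000105) and 0.683 times at E17.5/E18.5 (-0.55 ± 0.16, adjusted p = 0.0373). The late call was lost without the second or the third GFP array or the first or the third live-cell array (-0.56 to -0.47, adjusted p of 0.076 to 0.14). Unc5a, Unc5b and Unc5d were called in no comparison. The late GFP arrays spread from 7.60 to 8.79 for Unc5d, with the E18.5 array the lowest. Without both E18.5 arrays, Unc5d in late against E13.5 GFP cells was 0.44 (adjusted p = 0.046).

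Efna5 had the largest difference between the sorts among the ephrins. Efna5 read 8.55, 8.66 and 8.70 at E13.5, 8.70 and 8.78 at E14.5 and 8.53, 8.28 and 8.14 at E17.5/E18.5 in GFP cells, against 9.85, 9.82 and 9.86, then 9.86, 9.96 and 9.77, then 8.25, 8.49 and 8.21 in all live cells. At both early ages the live-cell arrays were above all GFP arrays, and the sorts overlapped at E17.5/E18.5. The level in GFP cells was 0.434 times that in all live cells at E13.5 (-1.21 ± 0.10, adjusted p = 1.79e-07) and 0.459 times at E14.5 (-1.12 ± 0.11, adjusted p = 1.16e-06), with a late difference of 0.00 ± 0.10 (adjusted p = 0.998). Over age Efna5 fell by 1.53 ± 0.10 in all live cells (adjusted p = 7.97e-09) and by 0.32 ± 0.10 in GFP cells (adjusted p = 0.0333), and the interaction was 1.21 ± 0.14 (adjusted p = 7.2e-05). The GFP fall lost its call without the second or the third array of either age (-0.31 to -0.23, adjusted p of 0.091 to 0.16).

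Efnb2 and Efnb3, of the B class, changed with age in both sorts. Efnb2 read 10.40, 10.47 and 10.17 at E13.5, 10.15 and 9.82 at E14.5 and 9.39, 9.32 and 9.43 at E17.5/E18.5 in GFP cells, against 10.07, 10.04 and 10.14, then 9.89, 9.75 and 9.81, then 9.36, 9.12 and 9.21 in all live cells. It fell by 0.97 ± 0.10 in GFP cells (adjusted p = 2.42e-06) and by 0.85 ± 0.10 in all live cells (adjusted p = 5.62e-06).

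Efnb3, in the mouse a midline barrier to corticospinal axons, read 8.86, 8.89 and 8.81 at E13.5, 8.50 and 8.60 at E14.5 and 9.68, 9.53 and 9.24 at E17.5/E18.5 in GFP cells, against 8.50, 8.44 and 8.46, then 8.74, 8.73 and 8.60, then 9.40, 9.22 and 8.81 in all live cells. The late arrays were the highest of each sort. Efnb3 rose by 0.63 ± 0.12 in GFP cells (adjusted p = 0.0019) and by 0.68 ± 0.12 in all live cells (adjusted p = 0.000702). Its excess in GFP cells at E13.5 (0.39 ± 0.12, adjusted p = 0.0387) was lost on leaving out any 1 of the 6 arrays (0.37 to 0.41, adjusted p of 0.068 to 0.11).

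Among the remaining ephrins, Efna2 read 7.05, 6.80 and 6.98 at E17.5/E18.5 and 7.60, 7.42 and 7.46 at E13.5 in all live cells, a fall of 0.55 ± 0.14 (adjusted p = 0.00761). In GFP cells the same ages gave 7.43, 7.11 and 7.12 against 7.47, 7.56 and 7.56 (-0.31 ± 0.14, adjusted p = 0.148). Efnb1 fell in all live cells (-0.32 ± 0.10, adjusted p = 0.0314), a call lost without any 1 of the E13.5 arrays or the second or the third late array (-0.34 to -0.21, adjusted p of 0.055 to 0.16). Efna3 was lower in GFP cells at E14.5 (-0.36 ± 0.12, adjusted p = 0.0425), a call lost without either GFP array or the first or second live-cell array (-0.44 to -0.27, adjusted p of 0.066 to 0.31). Efna1 and Efna4 were called in no comparison.

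The largest differences of the 40 genes at E13.5 were those of 2 Eph receptors, Ephb1 and Epha5. Ephb1 read 9.47, 9.66 and 9.47 at E13.5, 9.41 and 9.20 at E14.5 and 8.18, 8.08 and 7.98 at E17.5/E18.5 in GFP cells, against 7.95, 7.91 and 8.10, then 8.32, 8.37 and 8.26, then 8.07, 8.17 and 8.05 in all live cells. All early GFP arrays stood above 9, and at E17.5/E18.5 the sorts overlapped. Ephb1 was 2.92-fold higher in GFP cells at E13.5 (1.55 ± 0.09, adjusted p = 3.53e-09) and 1.98-fold at E14.5 (0.99 ± 0.10, adjusted p = 1.18e-06), with a late difference of -0.01 ± 0.09 (adjusted p = 0.96). It fell in GFP cells with age (-1.45 ± 0.09, adjusted p = 5.8e-09), while the change in all live cells was 0.11 ± 0.09 (adjusted p = 0.452). The interaction was -1.56 ± 0.12 (adjusted p = 2.14e-06).

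Epha5 read 10.003, 9.96 and 9.90 at E13.5, 10.26 and 10.27 at E14.5 and 10.04, 9.92 and 9.66 at E17.5/E18.5 in GFP cells, against 8.68, 8.68 and 8.78, then 9.09, 9.28 and 9.15, then 9.43, 9.56 and 9.31 in all live cells. The live-cell arrays moved up towards the GFP arrays without reaching them. Epha5 was 2.36-fold higher in GFP cells at E13.5 (1.24 ± 0.09, adjusted p = 8.94e-08), 2.13-fold at E14.5 (1.09 ± 0.10, adjusted p = 1.02e-06) and 1.36-fold at E17.5/E18.5 (0.44 ± 0.09, adjusted p = 0.00526, and 0.09 in a fit of those 2 groups alone). All live cells gained Epha5 with age (0.72 ± 0.09, adjusted p = 2.43e-05), the change in GFP cells was -0.08 ± 0.09, and the interaction was -0.80 ± 0.13 (adjusted p = 0.00187). Over the same ages the radial glia and astrocyte list in all live cells had 11 of 14 genes called higher and 1 called lower. Other lists also rose there, with 9 of 9 oligodendrocyte precursor, 9 of 9 microglial, 8 of 9 endothelial and 5 of 7 mural genes called higher and none lower. Of 12 pan-neuronal genes, 10 were called lower. The part of any of these cells in the Epha5 rise was not tested.

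Ephb3 read 8.41, 8.58 and 8.43 at E13.5, 8.92 and 8.93 at E14.5 and 8.74, 8.86 and 8.71 at E17.5/E18.5 in GFP cells, against 8.08, 8.004 and 8.02, then 7.79, 7.99 and 8.05, then 8.27, 8.33 and 8.32 in all live cells. GFP arrays were the higher ones at each age. The differences were 0.44 ± 0.08 at E13.5 (adjusted p = 0.000659), 0.98 ± 0.09 at E14.5 (adjusted p = 5.1e-07) and 0.46 ± 0.08 at E17.5/E18.5 (adjusted p = 0.000999). Over age Ephb3 rose by 0.29 ± 0.08 in GFP cells (adjusted p = 0.0167) and 0.27 ± 0.08 in all live cells (adjusted p = 0.0205). The first was lost without the first or the third E13.5 array or the second late array (0.25 to 0.27, adjusted p of 0.064 to 0.076), and the second without the second or the third array of either age (0.26, adjusted p of 0.052 to 0.07).

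**Figure D4:**
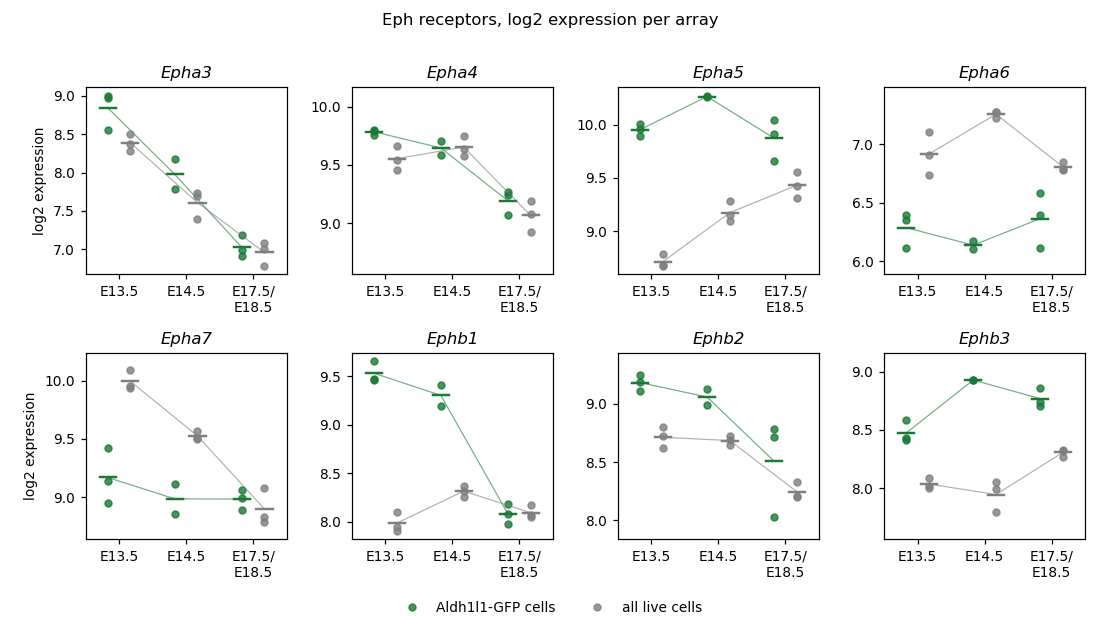
Log2 expression (vertical axis) of 8 Eph receptors on each array by age (horizontal axis), GFP cells in green and all live cells in grey; bars are group means and lines join them. Ephb1 GFP arrays drop to the live-cell range at E17.5/E18.5, Epha5 and Ephb3 GFP arrays stay above it, and Epha3 declines in both sorts.

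Epha6 and Epha7 were lower in GFP cells. Epha6 read 6.35, 6.40 and 6.11 at E13.5, 6.10 and 6.17 at E14.5 and 6.40, 6.58 and 6.11 at E17.5/E18.5 in GFP cells, against 6.91, 7.11 and 6.74, then 7.28, 7.23 and 7.27, then 6.78, 6.79 and 6.85 in all live cells. Its differences were -0.63 ± 0.11 at E13.5 (adjusted p = 0.000621), -1.12 ± 0.13 at E14.5 (adjusted p = 5.55e-06) and -0.44 ± 0.11 at E17.5/E18.5 (adjusted p = 0.0193). The late call was lost without the third GFP array (-0.32, adjusted p = 0.08) or the third live-cell array (-0.42, adjusted p = 0.064). It was also lost without both E18.5 arrays (-0.30, adjusted p = 0.16), with array weights (adjusted p = 0.089) and in a fit of those 2 groups alone (adjusted p = 0.1). Epha6 was dim, with a mean level of 6.66 beside a median of 7.79 over all genes.

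Epha7 read 9.42, 8.95 and 9.14 at E13.5, 8.86 and 9.11 at E14.5 and 9.07, 8.89 and 8.997 at E17.5/E18.5 in GFP cells, against 9.95, 10.09 and 9.93, then 9.50, 9.57 and 9.51, then 8.83, 8.79 and 9.08 in all live cells. The sorts were apart at the earlier ages and overlapped at E17.5/E18.5. Epha7 was lower in GFP cells at E13.5 (-0.82 ± 0.11, adjusted p = 4.42e-05) and at E14.5 (-0.54 ± 0.13, adjusted p = 0.00487), the second call being lost without the first GFP array of that age (-0.41, adjusted p = 0.1). It fell in all live cells by 1.09 ± 0.11 (adjusted p = 1.79e-06), the change in GFP cells was -0.19 ± 0.11 (adjusted p = 0.3), and the interaction was 0.91 ± 0.16 (adjusted p = 0.00262).

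Epha3, Epha4 and Ephb2 fell with age in both sorts. Epha3 read 8.97, 8.998 and 8.56 at E13.5, 8.17 and 7.79 at E14.5 and 6.99, 7.18 and 6.91 at E17.5/E18.5 in GFP cells, against 8.37, 8.28 and 8.50, then 7.69, 7.74 and 7.39, then 6.79, 7.002 and 7.09 in all live cells. The fall was 1.81 ± 0.14 in GFP cells (adjusted p = 8.51e-08) and 1.43 ± 0.14 in all live cells (adjusted p = 8.06e-07). Each age lay below the one before it in both sorts. Epha4, which mediates repulsion of motor and interneuron axons, read 9.76, 9.79 and 9.80 at E13.5, 9.59 and 9.71 at E14.5 and 9.27, 9.24 and 9.07 at E17.5/E18.5 in GFP cells. All live cells read 9.54, 9.46 and 9.66, then 9.64, 9.75 and 9.57, then 8.93, 9.08 and 9.19. Epha4 fell by 0.59 ± 0.09 in GFP cells (adjusted p = 0.00013) and by 0.49 ± 0.09 in all live cells (adjusted p = 0.000521).

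Ephb2 read 9.11, 9.19 and 9.25 at E13.5, 8.99 and 9.12 at E14.5 and 8.78, 8.71 and 8.03 at E17.5/E18.5 in GFP cells, against 8.72, 8.62 and 8.80, then 8.69, 8.72 and 8.64, then 8.33, 8.20 and 8.21 in all live cells. The E18.5 GFP array stood well below the E17.5 pair and below every live-cell array. Ephb2 fell by 0.67 ± 0.14 in GFP cells (adjusted p = 0.00262) and by 0.47 ± 0.14 in all live cells (adjusted p = 0.0233). The live-cell call was lost without the first or the third E13.5 array or the second or the third late array (-0.46 to -0.42, adjusted p of 0.062 to 0.086). The late difference between the sorts was 0.26 ± 0.14 (adjusted p = 0.303), and 0.50 without the E18.5 GFP array (adjusted p = 0.00098).

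At E13.5 Epha3 (0.46 ± 0.14, adjusted p = 0.0248) and Ephb2 (0.47 ± 0.14, adjusted p = 0.0241) were higher in GFP cells. The Epha3 call was lost without the first or second array of either sort (0.38 to 0.45, adjusted p of 0.071 to 0.11). The Ephb2 call was lost without the second or the third GFP array or the first or second live-cell array (0.42 to 0.47, adjusted p of 0.062 to 0.086). Ephb4 was higher in GFP cells at E17.5/E18.5 (0.29 ± 0.08, adjusted p = 0.0299), a call lost without the second or the third GFP array or the first or the third live-cell array (0.23 to 0.30, adjusted p of 0.059 to 0.13). Epha1, Epha2, Epha8, Epha10 and Ephb6 were called in no comparison; the last of these and Epha10 lack a functional kinase.

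Over age, 15 of the 40 genes were called in GFP cells at E17.5/E18.5 against E13.5, 4 higher and 11 lower, where 7.31% of all genes were called higher and 8.94% lower. With the arrays shifted to a common median, the higher share of all called genes in that comparison was 31.7% in place of 45.0%. In all live cells 18 were called, 4 higher and 14 lower, against 10.2% and 9.99% of all genes. The median change of the 40 was -0.06 in GFP cells and -0.11 in all live cells, beside 0.05 and -0.03 for all genes. Dcc, Efna5, Efnb2, Epha3, Epha4, Ephb2, Robo3, Slit2 and Unc5c fell in both sorts, and Efnb3 and Ephb3 rose in both. Unc5c fell by 0.58 ± 0.16 in GFP cells (adjusted p = 0.0173) and by 0.84 ± 0.16 in all live cells (adjusted p = 0.000894). The GFP call for Unc5c was lost without the first or second E13.5 array or the second or the third late array (-0.58 to -0.44, adjusted p of 0.052 to 0.099). Pan-neuronal genes also fell with age, 8 of 12 in GFP cells and 10 of 12 in all live cells, and their part in these changes was not tested.

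**Figure D5:**
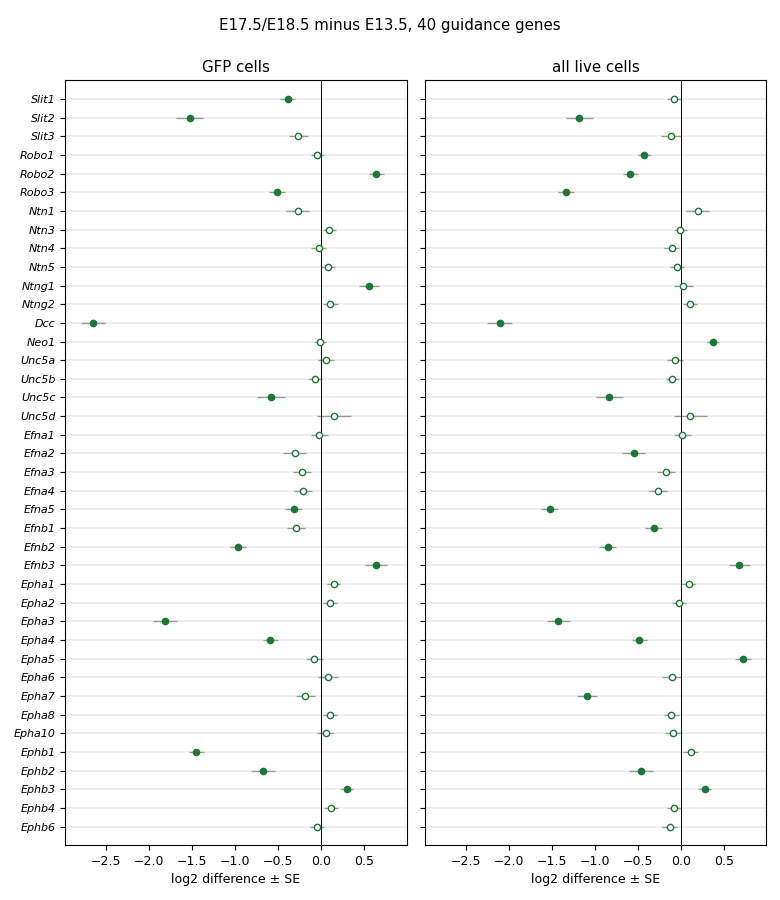
Log2 difference between E17.5/E18.5 and E13.5 (horizontal axis) for the 40 guidance genes (rows) in GFP cells (left) and all live cells (right), with bars of 1 SE; filled points passed an adjusted p of 0.05. Dcc, Slit2 and Epha3 lie far left in both panels, Ephb1 only in GFP cells, and Robo2 lies on opposite sides.

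The change within GFP cells was split at E14.5. From E13.5 to E14.5, 5 of the 40 were called, 2 higher and 3 lower, against 0.914% and 0.591% of all genes. Robo2 (0.56 ± 0.10, adjusted p = 0.00689) and Ephb3 (0.45 ± 0.09, adjusted p = 0.0131) rose, and Slit2, Epha3 (-0.87 ± 0.15, adjusted p = 0.00659) and Dcc (-0.68 ± 0.16, adjusted p = 0.0415) fell. With 2 arrays at E14.5 these calls depended on single arrays. The count was 3 without the first or the third E13.5 array, where 0.793% and 0.881% of all genes were called in place of 1.51%. Leaving out an E14.5 array leaves 1 in that group, so only differences are given for such a fit. Without the second E14.5 array they were 0.51 for Robo2, 0.45 for Ephb3, -0.90 for Slit2, -0.67 for Epha3 and -0.61 for Dcc. Between E14.5 and E17.5/E18.5, 11 were called, 1 higher and 10 lower, against 2.97% and 3.28% of all genes. With the arrays shifted to a common median, the higher share of all called genes in that comparison was 33.9% in place of 47.5%. Efnb3 rose (0.93 ± 0.14, adjusted p = 0.000454), and Dcc (-1.98 ± 0.16, adjusted p = 8.25e-07) and Ephb1 (-1.22 ± 0.10, adjusted p = 7.51e-07) fell furthest. Without the E18.5 GFP array the count was 6, where 5.53% of all genes were called in place of 6.25%.

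The interaction of sort and age was called for 7 of the 40 genes, 4 positive and 3 negative, where 1.6% of all genes were called positive and 2.99% negative. Efna5, Epha7, Robo2 and Robo3 were positive, with GFP cells gaining relative to all live cells, and Ephb1, Epha5 and Neo1 (-0.39 ± 0.10, adjusted p = 0.0288) were negative. The 4 positive genes were all lower in GFP cells at E13.5 and the 3 negative genes all higher. The E13.5 difference is subtracted in the interaction, so opposite signs are favoured by how it is built. The Neo1 term was lost without any 1 of the E13.5 GFP arrays, the second E13.5 live-cell array, the E18.5 GFP array or the first or second late live-cell array (-0.39 to -0.33, adjusted p of 0.053 to 0.076).

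Other components of the same pathways were taken from 2 lists. Of 20 further cues and modulators, 5 were higher and 6 lower in GFP cells at E13.5, 4 and 4 at E14.5 and 2 and 6 at E17.5/E18.5, beside 11.1% and 8.01%, 10.3% and 8.23%, and 4.6% and 4.68% of all genes. Cntn4, a neuronal cell adhesion molecule (-1.80 ± 0.17 at E13.5), and Flrt2, an Unc5 ligand (-0.96 ± 0.10), were lower, while Ext1, a heparan sulphate synthase (0.82 ± 0.08), and Rgma, a Neo1 ligand (0.70 ± 0.09), were higher. Dscam, an adhesion molecule of the immunoglobulin superfamily, was lower at E14.5 (-1.43 ± 0.17) and E17.5/E18.5 (-1.35 ± 0.16). Over age in GFP cells 4 rose and 6 fell, beside 7.31% and 8.94% of all genes, among them Nell2, a Robo3 ligand (-0.83 ± 0.10), and Prrg4 (0.82 ± 0.17).

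Of 39 intracellular partners, 4 were higher and 8 lower in GFP cells at E13.5, 6 and 9 at E14.5 and 2 and 4 at E17.5/E18.5. The shares of all genes were 11.1% and 8.01%, 10.3% and 8.23%, and 4.6% and 4.68%, so the higher counts at E13.5 and E17.5/E18.5 lay near those of all genes. The Src-family kinase Yes1 (0.91 ± 0.09) and the Rac activator Dock1 (0.74 ± 0.09) were higher at E13.5, and Chn1, the Rac inhibitor α-chimaerin that acts below Epha4, was lower (-0.85 ± 0.10). Over age in GFP cells 7 rose and 6 fell, beside 7.31% and 8.94% of all genes. Vav3 (-1.37 ± 0.12) and Pak1 (-1.05 ± 0.09) fell, and Ngef, the ephexin that links Eph receptors to RhoA (0.85 ± 0.09), and Dock1 (0.78 ± 0.09) rose.

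The authors' deposited table for E13.5 held 1875 entries and listed 13 of the 40 genes, 5 with a fold above 1 and 8 below 1. These 13 differed by at least 1.548-fold in either direction. They included Epha6 and Unc5c at the authors' adjusted p of 0.087 and 0.065, so that list was not cut at the threshold used here. Epha3, Ephb2, Ephb3 and Efnb3, called here at that age with log2 differences of 0.39 to 0.47, were not on it. For E14.5 the authors' deposited table held 552 entries. It listed 2 of the 40, Ephb1 at 1.56-fold and Ephb3 at 1.52-fold, both with an adjusted p of 0.139. Here 15 were called at that age. Both folds were smaller than those found here, and whether that table used the same E14.5 GFP arrays was not determined. For E17.5/E18.5 the authors' deposited table listed 2, Slit1 at 1.56-fold and Dcc at 0.443-fold, where 10 were called here. The others called here at that age differed by less than 1.56-fold in either direction. In the authors' deposited table of module memberships, a membership is the correlation of a gene with a module's profile over the arrays. Under the stricter rule there, 8 of the 40 were assigned and 32 were not. Of all 23890 genes, 22581 were not assigned under that rule. Slit1 (0.924), Ntn1 (0.921) and Ephb1 (0.920) belonged to the red module in the authors' deposited table, and Neo1 (0.928) and Ephb3 (0.923) to the turquoise one. Efna5 (0.954) and Unc5c (0.934) were in the blue module and Dcc (0.927) in the brown one, again by the authors' deposited table. These memberships use the same arrays as the comparisons above.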

How the data were processed

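The deposited matrix holds log2 expression values of probe sets. The tools named are oligo, RMA and limma and the build is mm9, per the submitters' processing notes. The authors' deposited tables also gave fold changes as a ratio with adjusted p-values, and module memberships, a score between -1 and 1. Probe sets carry no gene names in the deposited matrix, so names were paired by value. Correlations with each module's profile were recomputed over 17 arrays from linear values, and each of the 23890 genes of the module table could be matched within 1e-08. Where both sources named a probe set, 1925 of 1952 names were the same. Older symbols were updated for 3309 names through the RefSeq table, 3255 names were not in it, and for 26 genes with several probe sets the brightest was kept. In all, 6 per-sample value columns of the authors' E13.5 and E14.5 tables were not assigned to a group and not used. The columns that were used covered every group except the E14.5 GFP cells.

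limma 3.58.1 (R 4.3.3) fitted 6 group means to 23845 genes, with no further normalization, filter or block. The residual degrees of freedom were 11. The script was tested on simulated data. Samples were grouped by the labels on sort and age, and the late group joins E17.5 and E18.5. The labels call the samples biological replicates. The number of arrays limits the precision. The members, the marker lists and the pathway lists were chosen with earlier results of these data known. Named members are those of the families, with per-array values for those called with a log2 difference of at least 0.5 in any comparison; other genes are named from the lists if called at that size, at most 4 per list and comparison. Deviations of same-numbered arrays from their group means were weakly correlated (-0.08 to 0.12). With so few arrays per group this cannot exclude a shared litter or sort day, which the labels do not give. In the late groups the third array of both sorts is the E18.5 one. Alternatives were other normalizations, filters, array weights, an intensity trend, a replicate block, a fit of the groups compared alone, and leaving out arrays.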

Additional observations from a re-analysis of the deposited data

Results flagged for a closer look

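For 7 genes the difference between GFP cells and all live cells at E17.5/E18.5 departed from that at E13.5 by the test of the difference itself, the interaction in limma. The values, late minus early, were 1.21 for Efna5, 1.23 for Robo2, 0.91 for Epha7, 0.82 for Robo3, -0.80 for Epha5, -1.56 for Ephb1 and -0.39 for Neo1. Ephb1 is the gene among them that changed in GFP cells with a live-cell change of 0.11 that was not called. For Epha5, Epha7 and Neo1 the live-cell change was called and the GFP change was not.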

How the results depend on the processing

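Of 98 called values of the 40 genes over the 8 comparisons, 67 stayed called under every alternative tried, 31 were lost under at least 1 and 0 changed sign. Of 222 uncalled values, 24 were called under at least 1. Apart from fits leaving out 1 array, counts of called genes moved by over 1.5 times in these cases. GFP cells against all live cells at E17.5/E18.5 had 5 in place of 10 in a fit of those 2 groups alone. GFP cells at E17.5/E18.5 against E14.5 had 11 in the main fit. They had 4 in a fit of the groups compared alone, 7 with the replicate number as a block and 6 without the E18.5 arrays. The share of all genes called went from 9.29% to 4.3% in the first case. In the others it went from 6.25% to 2.29%, 5.19% and 6.17%. Of these 4 fits 3 had fewer arrays; for the block, the cause was not tested. Leaving out 1 array at a time gave 14 to 16 called genes for the sorts at E13.5, 13 to 15 at E14.5 and 6 to 10 at E17.5/E18.5. For late against E13.5 it gave 12 to 16 in GFP cells and 15 to 18 in all live cells, for E14.5 against E13.5 in GFP cells 0 to 4 (9 at an unadjusted p of 0.05 where limma called 0), for late against E14.5 in GFP cells 5 to 12, and for the interaction 6 to 8. Fits that leave a lone array in the E14.5 GFP group are not in these ranges, since that array is assumed to vary like the other groups. The replicate block changed that count by over 1.5 times in no other comparison. It ended the calls of Unc5c in GFP cells against all live cells at E17.5/E18.5 (-0.55, adjusted p = 0.056), Dcc in GFP cells at E14.5 against E13.5 (-0.69, adjusted p = 0.063), Neo1 in the interaction (-0.39, adjusted p = 0.0508) and Efna5, Epha5, Ephb2 and Robo1 in GFP cells at E17.5/E18.5 against E14.5 (adjusted p of 0.056 to 0.085). It added Slit2 between the sorts at E14.5 (-0.50, adjusted p = 0.041) and Ntng1 in the interaction (0.53, adjusted p = 0.04), and changed no other call of the 40 genes. The limits are 2 GFP arrays at E14.5, a late group that joins 2 ages, and 14 members whose mean level lay below the median of all genes, of which 5 were called.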
